A study of Homo sapiens with 15 samples.

Results

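The 10 genes described here are *ANGPTL4*, the gene knocked out in the study, and 9 lipases and regulators of lipolysis (*LPL*, *LIPG*, *LIPA*, *LIPE*, *PNPLA2*, *PNPLA3*, *MGLL*, *ABHD5* and *G0S2*). They were taken by symbol from a given list, which was drawn up with earlier results of these data known. All 10 were among the 16296 genes measured in CAKi-1, and 9 were among the 16188 genes measured in 786O. These 9 were also among the 15247 genes measured in both lines, and *LPL* was not analysed in 786O.

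RNA-seq was carried out on CAKi-1 and 786O, established human clear cell renal cell carcinoma (ccRCC) lines, of which CAKi-1 carries WT *VHL* and 786O mutant *VHL*. Each line was compared as WT and as ANGPTL4 knockout (A4KO), from 9 libraries of CAKi-1 (4 WT, 5 A4KO) and 6 of 786O (3 WT, 3 A4KO). The comparison asks what loss of *ANGPTL4* does to transcript levels. The A4KO cells of each line were a mixture of CRISPR-Cas9 clones selected for loss of *ANGPTL4* mRNA after transfection with a single guide RNA. The 786O WT cells were a mixture of clones that had been through the same steps and kept *ANGPTL4*. The sources differ on the CAKi-1 WT cells, which are given as parental cells in one place and as combined clones in another. With parental cells the effects of cloning and of knockout cannot be told apart. In both lines WT and A4KO cells came from different clones or cells. Differences between these and the effect of knockout thus cannot be told apart in 786O either. They also differ on the medium, given as RPMI with the libraries and as DMEM in the methods.

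Values are TPM, the part that a gene makes up of all transcripts in a library after correction for transcript length. They summed to between 961437 and 973887 per library, and 0 values were exactly 0. Genes with a 0 in some library may thus have been left out before deposit, which could not be checked. A gene that was not measured may therefore have been low, and shares of all genes refer to the genes kept. Mitochondrial genes held between 6.39% and 10.0%. That share was 7.47%, 8.16% and 7.81% in WT and 10.0%, 9.84% and 9.46% in A4KO libraries of 786O, which do not overlap, while those of CAKi-1 overlapped (6.39% to 7.88% in WT, 6.58% to 8.00% in A4KO). With TPM taken over the other genes, 2 members of 786O no longer passed (*LIPA* and *PNPLA2*), and the part of this share in the results was not tested further. TPM keeps no read number, and the 3000000 reads stated for every sample could not be checked per library. A log2 fold change is the difference of mean log2(TPM + 1), A4KO minus WT, which understates the change of genes with low TPM. A gene passed the test at a limma adjusted p of at most 0.05, and was called where the log2 fold change was also at least 1 in size. Nothing in the labels says that libraries came from separate cultures, so p-values measure the spread between these libraries, which may be technical. In RNA from bulk cultures, fewer cells expressing a gene and less RNA per cell cannot be told apart.

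Triglycerides and cholesteryl esters are broken down by lipases that work in different places. Lipoprotein lipase and endothelial lipase are secreted and act on lipoproteins outside the cell, and ANGPTL4 is a secreted protein that inhibits lipoprotein lipase. Inside the cell, lysosomal acid lipase degrades lipids delivered to lysosomes, and adipose triglyceride lipase, hormone-sensitive lipase and monoacylglycerol lipase act in sequence on stored triglyceride, a store for which ccRCC cells are known.

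*ANGPTL4* and *LIPE* lie on chromosome 19 of hg38, *MGLL* and *ABHD5* on chromosome 3, and the other members each on a chromosome of their own. The sequences just before the transcription start are shown for *ANGPTL4*, *LIPG* and *G0S2*, because these are the members called lower in 786O. They are RefSeq sequences (GRCh38.p14), 5′ to 3′ on the plus strand, at chr19:8363905-8364154, chr18:49561891-49562056 and chr1:209675162-209675411. The first and the last span 250 bases, and that of *LIPG* was shortened to 166 bases to keep out annotated exons. The windows of *ANGPTL4* and *LIPG* lie within the annotated span of the gene, before the start of its canonical transcript, and that of *G0S2* lies just before the gene. Entries were found for 7 of the 9 members outside the chromosome of *LPL*. Capitals mark matches on either strand to ACGTG, which reads CACGT from the other strand, to GCGTG, which then reads CACGC, and to TATAAA.

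ANGPTL4: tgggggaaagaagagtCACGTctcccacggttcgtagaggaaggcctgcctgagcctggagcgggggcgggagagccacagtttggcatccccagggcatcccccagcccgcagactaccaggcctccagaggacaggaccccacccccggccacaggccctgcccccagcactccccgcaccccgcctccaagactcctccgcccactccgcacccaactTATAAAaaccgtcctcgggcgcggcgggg
LIPG: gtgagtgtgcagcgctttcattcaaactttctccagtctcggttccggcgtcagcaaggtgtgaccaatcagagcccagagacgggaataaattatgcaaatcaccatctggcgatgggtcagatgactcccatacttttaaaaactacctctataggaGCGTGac
G0S2: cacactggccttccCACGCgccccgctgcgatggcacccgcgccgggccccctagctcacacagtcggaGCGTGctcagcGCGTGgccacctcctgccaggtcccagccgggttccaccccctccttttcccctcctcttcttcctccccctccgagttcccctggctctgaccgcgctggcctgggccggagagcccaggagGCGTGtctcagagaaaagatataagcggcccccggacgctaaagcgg

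ACGTG and GCGTG are the core letters of hypoxia response elements, and TATAAA is the TATA box. The *ANGPTL4* sequence held 1 ACGTG match, whose first base lay 234 bases before the start, and TATAAA at 29 bases before it. The *LIPG* sequence held 1 GCGTG match at 7 bases, and that of *G0S2* held 4, at 236, 181, 170 and 47 bases. CACGTG, which contains ACGTG on both strands, and AGGTCA, the core of the PPAR response element, had 0 matches in these 3 windows. Of 35116 promoters cut to 250 bases, 18.5% held ACGTG, 32.2% GCGTG, 6.34% CACGTG, 12.1% AGGTCA and 10.7% TATAAA. At 166 bases the shares were 13.7%, 25.1%, 4.86%, 8.29% and 7.30% in the same order.

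The A4KO libraries of CAKi-1 were not alike. Replicates 1 and 4 stood apart from replicates 2, 3 and 5 in *ANGPTL4* itself and in *PNPLA2*, *MGLL* and, less clearly, *G0S2*, so that values for CAKi-1 are also given without them where a member then newly passed, no longer passed, changed sign or moved by more than 1.5 times. Because these members' own values set the replicates apart, an adjusted p without them is conditional on that choice and decides nothing for these members. Among the WT libraries of this line, replicate 4 was the highest for *G0S2* and *LIPG*.

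*ANGPTL4* (ENSG00000167772.12, chr19:8363289-8374370, 7 exons) was reduced in every A4KO library, which checks the labels and is what the clones were selected for. In CAKi-1 it was at 74.9, 83.2, 86.9 and 71.7 TPM in WT, against 7.26, 2.87, 2.87, 6.47 and 2.90 TPM in A4KO. The A4KO libraries kept 5.65% of the WT mean, and replicates 1 and 4 lay above the other 3. The log2 fold change of -3.96 (SE 0.253, limma adjusted p = 1.20e-05) became -4.36 without those replicates (limma adjusted p = 4.92e-07). In 786O it was at 20.6, 17.6 and 18.1 TPM in WT, against 2.19, 2.17 and 1.86 TPM in A4KO. Here the A4KO libraries kept 11.0% of the WT mean, with a log2 fold change of -2.69 (SE 0.0737, limma adjusted p = 1.57e-06). The fall was smaller in 786O by 1.27 on the log2 scale (SE 0.335, limma interaction adjusted p = 0.00534), and by 1.68 without A4KO replicates 1 and 4 of CAKi-1 (limma interaction adjusted p = 1.06e-07).

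**Figure D1:**
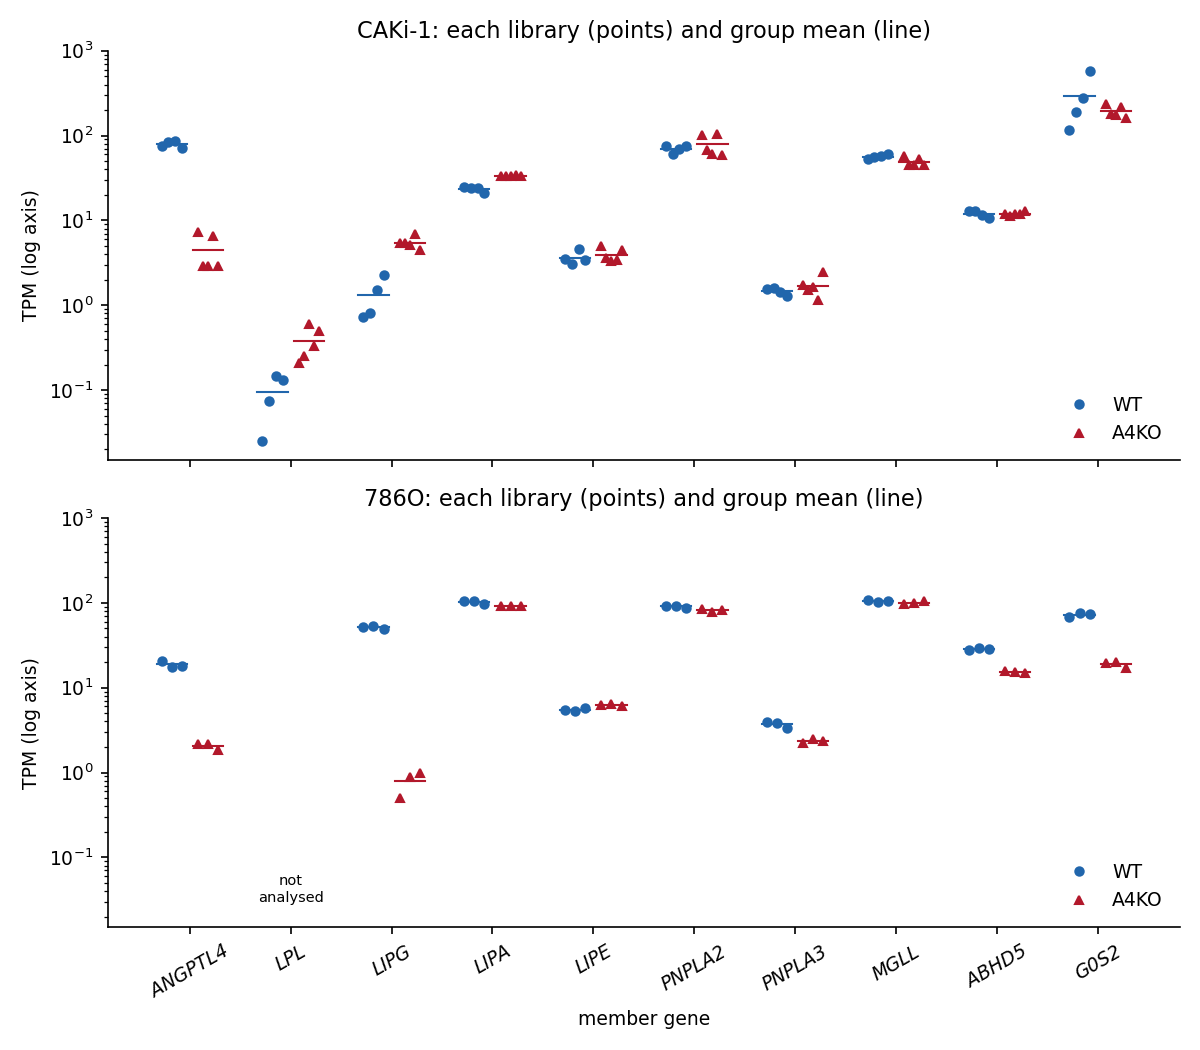
TPM of each member in every library on a log axis, with points for libraries and bars for the mean of each group in CAKi-1 and 786O. *LIPG* rose from a mean of 1.33 to 5.46 TPM in CAKi-1 and fell from 51.8 to 0.796 TPM in 786O, while the WT and A4KO libraries overlapped for *MGLL* in both lines.

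*LIPG* (ENSG00000101670.12, chr18:49560699-49599185, 10 exons), which encodes endothelial lipase, a secreted enzyme that acts mainly on phospholipids of lipoproteins, moved in opposite directions in the lines. In CAKi-1 it was at 0.734, 0.806, 1.5 and 2.29 TPM in WT, against 5.38, 5.48, 5.08, 6.95 and 4.42 TPM in A4KO. The A4KO libraries were all above the WT libraries, and the means of 1.33 ± 0.727 (SD, n = 4) and 5.46 ± 0.929 TPM (SD, n = 5) differed 4.10-fold. In 786O it was at 52.3, 53.3 and 49.7 TPM in WT, against 0.506, 0.880 and 1.0 TPM in A4KO. Every A4KO library was far under every WT library, and the WT mean was 65.0 times the A4KO mean. *LIPG* was thus low in WT CAKi-1 and abundant in WT 786O, and the means of the A4KO cells stood in the opposite order, although no level was tested between the lines.

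The log2 fold change of *LIPG* was 1.51 in CAKi-1 (SE 0.191, 95% interval 1.08 to 1.94, limma adjusted p = 0.000375) and -4.89 in 786O (SE 0.108, 95% interval -5.15 to -4.62, limma adjusted p = 8.37e-07). The difference between the lines was -6.40 (SE 0.265, limma interaction adjusted p = 2.95e-10). An exact permutation test within CAKi-1 gave a two-sided p of 0.0159 for *LIPG*, as for *ANGPTL4*, *LPL* and *LIPA*, the smallest that 4 libraries against 5 allow. In 786O the exact permutation test cannot give a two-sided p under 0.1. The nearest expressed genes before it on chromosome 18, *RPL17-C18orf32* and *RPL17*, had log2 fold changes of 0.09 and 0.24 in CAKi-1 and of 0.12 and -0.36 in 786O. Those after it, *ACAA2* and *MYO5B*, were at 0.19 and -1.21 in CAKi-1 and at -0.56 and -1.68 in 786O. With the median shift of 25 expressed neighbours on each side removed, *LIPG* was at 1.54 in CAKi-1 and -4.63 in 786O.

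*LPL* (ENSG00000175445.17), the gene of lipoprotein lipase, the enzyme that ANGPTL4 inhibits, was the lowest member in CAKi-1. It was at 0.0250, 0.0750, 0.145 and 0.131 TPM in WT, against 0.207, 0.251, 0.594, 0.332 and 0.497 TPM in A4KO. All 5 A4KO libraries were above all 4 WT libraries, but all 9 were under 1 TPM. The log2 fold change was 0.32 (SE 0.0882, limma adjusted p = 0.0172), against a ratio of mean TPM of 4.00. It did not pass without WT replicate 1 (0.29, limma adjusted p = 0.0528) or with the shift of neighbouring genes removed (0.24, limma adjusted p = 0.0742). With a pseudocount of 0.1 the log2 fold change was 1.28 (limma adjusted p = 0.00867), which is past the size set for a call.

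*LIPA* (ENSG00000107798.18, chr10:89213569-89414557, 10 exons) encodes lysosomal acid lipase, which hydrolyses triglycerides and cholesteryl esters in lysosomes. In CAKi-1 it was at 25.1, 24.3, 23.9 and 21.1 TPM in WT, against 33.3, 33.0, 33.8, 33.9 and 33.2 TPM in A4KO. The A4KO libraries, replicates 1 and 4 included, lay within 1 TPM of each other and above all WT libraries, and *LIPA* rose by a log2 fold change of 0.49 (SE 0.0552, limma adjusted p = 0.000210), or 0.74 with the shift of neighbouring genes removed (limma adjusted p = 3.82e-05). In 786O it was at 104, 104 and 95.8 TPM in WT, against 91.9, 93.0 and 92.4 TPM in A4KO. The A4KO libraries were under the WT libraries by a small margin, set by WT replicate 3, and the log2 fold change of -0.13 (SE 0.0440) only just passed (limma adjusted p = 0.0436). It did not pass without WT replicate 1 or 2 (limma adjusted p = 0.114 and 0.126) and without A4KO replicate 1, 2 or 3 (limma adjusted p = 0.106, 0.0900 and 0.0959). Nor did it pass with a pseudocount of 0.1 (limma adjusted p = 0.0596) or with TPM over genes that are not mitochondrially encoded, where the log2 fold change was -0.10 (limma adjusted p = 0.0987). It passed without WT replicate 3 (-0.17, limma adjusted p = 0.0149), with the trend and robust options of limma (limma adjusted p = 0.0176) and with the shift of neighbouring genes removed (-0.21, limma adjusted p = 0.00578). The difference between the lines, -0.62 (SE 0.0764), passed (limma interaction adjusted p = 1.29e-05), and was -0.95 with that shift removed (limma interaction adjusted p = 4.59e-07). The annotated exons of *LIPA* share up to 135 bases with ENSG00000232110, which was not analysed in either line, 94 with *IFIT3* and 65 with *IFIT2*, all on the other strand. *IFIT3* had log2 fold changes of -0.33 in CAKi-1 and 1.06 in 786O, and *IFIT2* of 0.34 and 0.89. Whether the counting used strand is not given in the sources used here, so reads of the shared bases cannot be told apart.

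*PNPLA2* (ENSG00000177666.17, chr11:818914-825573), which encodes adipose triglyceride lipase, the enzyme that removes the first fatty acid from stored triglyceride, was among the abundant members of both lines. In CAKi-1 it was at 75.3, 60.8, 70.2 and 74.4 TPM in WT, against 102, 67.6, 60.6, 104 and 58.3 TPM in A4KO. A4KO replicates 1 and 4 were above every other library, and the other 3 lay within or under the WT range, so that the log2 fold change was 0.12 (SE 0.188, limma adjusted p = 0.657) with all libraries and -0.17 (limma adjusted p = 0.171) without those replicates. Without replicate 1 alone or replicate 4 alone it was 0.01 (limma adjusted p = 0.966 and 0.981). It was 0.22 after quantile normalization (limma adjusted p = 0.432) and 0.46 with the shift of neighbouring genes removed (limma adjusted p = 0.0776). In 786O it was at 93.0, 91.5 and 87.5 TPM in WT, against 83.9, 77.9 and 82.2 TPM in A4KO. The groups did not overlap, and the log2 fold change was -0.15 (SE 0.0454, limma adjusted p = 0.0252). The adjusted p was 0.0725 without WT replicate 1, 0.0722 without WT replicate 2, 0.0749 without A4KO replicate 2 and 0.0523 without A4KO replicate 3. With the shift of neighbouring genes removed, *PNPLA2* in 786O had a log2 fold change of -0.02 (limma adjusted p = 0.714), and with TPM over genes that are not mitochondrially encoded it was -0.13 (limma adjusted p = 0.0526). *PNPLA2* shares up to 230 exon bases with ENSG00000255108 on the other strand, which was not analysed here, so that reads of these bases cannot be told apart.

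The activator and the inhibitor of adipose triglyceride lipase both fell in 786O. *ABHD5* (ENSG00000011198.10, chr3:43690108-43734371), whose product CGI-58 activates the enzyme, was at 28.0, 29.0 and 28.3 TPM in WT, against 15.6, 15.2 and 14.8 TPM in A4KO cells of 786O. The libraries within a group differed little, and the A4KO mean was 53.4% of the WT mean, a log2 fold change of -0.86 (SE 0.0374, limma adjusted p = 7.86e-06). In CAKi-1 *ABHD5* was at 12.9, 12.9, 11.5 and 10.7 TPM in WT, against 11.9, 11.3, 11.9, 11.9 and 12.9 TPM in A4KO. These ranges overlapped, with a log2 fold change of -0.0012 (95% interval -0.15 to 0.15, limma adjusted p = 0.991) that was 0.0020 without A4KO replicates 1 and 4 (limma adjusted p = 0.988), and the lines differed by -0.86 (SE 0.0871, limma interaction adjusted p = 1.87e-06). *ABHD5* shares up to 170 exon bases with *ANO10* on the other strand, which had log2 fold changes of -1.07 in 786O and 0.14 in CAKi-1. The median shift of 25 expressed neighbours on each side was -0.26 in 786O, and with it removed *ABHD5* was at -0.61 (limma adjusted p = 5.05e-05). In CAKi-1 it was then at -0.14 (limma adjusted p = 0.0854), and the difference between the lines was -0.46 (limma interaction adjusted p = 0.000264).

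*G0S2* (ENSG00000123689.6, chr1:209675412-209676390, 2 exons), which encodes a small protein that inhibits adipose triglyceride lipase, was at 68.6, 75.0 and 73.4 TPM in WT, against 19.7, 20.2 and 17.1 TPM in A4KO cells of 786O. No A4KO library was above 20.2 TPM and no WT library under 68.6 TPM, and the log2 fold change was -1.88 (SE 0.0716, limma adjusted p = 4.89e-06). In CAKi-1 *G0S2* was at 117, 189, 277 and 576 TPM in WT, against 235, 179, 173, 217 and 161 TPM in A4KO. The WT libraries were spread widely and enclosed every A4KO library, with a log2 fold change of -0.35 (SE 0.383, limma adjusted p = 0.503). Without WT replicate 4 it was 0.06 (limma adjusted p = 0.879), without A4KO replicates 1 and 4 it was -0.51 (limma adjusted p = 0.437), and with the shift of neighbouring genes removed -0.12 (limma adjusted p = 0.812). The difference between the lines was -1.52 (SE 0.503, limma interaction adjusted p = 0.0194), and -1.36 without A4KO replicates 1 and 4 of CAKi-1, where it did not pass (limma interaction adjusted p = 0.0528).

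*PNPLA3* (ENSG00000100344.11, chr22:43923792-43964488), which encodes adiponutrin, a relative of adipose triglyceride lipase on lipid droplets, was at 3.96, 3.80 and 3.33 TPM in WT, against 2.21, 2.45 and 2.35 TPM in A4KO cells of 786O. The groups were apart, and *PNPLA3* fell by 0.49 on the log2 scale (SE 0.0614, limma adjusted p = 0.000641). The log2 fold change was -0.27 after quantile normalization (limma adjusted p = 0.00651) and -0.31 with the shift of neighbouring genes removed (limma adjusted p = 0.00378). In CAKi-1 it ranged from 1.29 to 1.58 TPM in WT and from 1.15 to 2.44 TPM in A4KO, with A4KO libraries on both sides of the WT range and a log2 fold change of 0.11 (SE 0.117, limma adjusted p = 0.482). Without A4KO replicates 1 and 4 it was 0.20 (limma adjusted p = 0.188), without A4KO replicate 5, the highest library, 0.02 (limma adjusted p = 0.872), and after quantile normalization 0.01 (limma adjusted p = 0.958). The difference between the lines, -0.60 (SE 0.159, limma interaction adjusted p = 0.00526), was -0.28 after quantile normalization (limma interaction adjusted p = 0.198). *PNPLA3* shares up to 111 exon bases on the same strand with *SAMM50*, whose log2 fold changes were -0.06 in CAKi-1 and -0.24 in 786O.

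*LIPE* (ENSG00000079435.10, chr19:42401514-42427388) encodes hormone-sensitive lipase, which acts on diacylglycerol. In 786O it was at 5.39, 5.33 and 5.81 TPM in WT, against 6.24, 6.47 and 6.07 TPM in A4KO. It was the only member whose A4KO libraries all lay above WT in 786O, by a log2 fold change of 0.16 (SE 0.0449, limma adjusted p = 0.0224). The adjusted p was 0.0645 without WT replicate 1, 0.0717 without WT replicate 2, 0.0571 without A4KO replicate 1 and 0.0721 without A4KO replicate 2, and 0.0621 with the trend and robust options of limma. The log2 fold change was 0.35 after quantile normalization (limma adjusted p = 0.000650) and 0.43 with the shift of neighbouring genes removed (limma adjusted p = 0.00182). In CAKi-1 *LIPE* ranged from 3.03 to 4.57 TPM in WT and from 3.28 to 5.05 TPM in A4KO, overlapping, with a log2 fold change of 0.10 (SE 0.126, limma adjusted p = 0.584). With each library left out it ranged from 0.02, without A4KO replicate 1, to 0.19, without WT replicate 3. It was 0.04 without A4KO replicates 1 and 4 (limma adjusted p = 0.809), 0.01 after quantile normalization (limma adjusted p = 0.964) and -0.05 with the shift of neighbouring genes removed (limma adjusted p = 0.794). *LIPE* shares up to 369 exon bases with *LIPE-AS1* on the other strand, which was not analysed here, and the same limit on shared bases applies.

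*MGLL* (ENSG00000074416.16, chr3:127689062-128052190) encodes monoacylglycerol lipase, which releases the last fatty acid. In CAKi-1 it was at 52.6, 55.2, 57.7 and 60.6 TPM in WT, against 56.9, 44.4, 45.6, 53.3 and 44.9 TPM in A4KO. A4KO replicates 1 and 4 lay within the WT range and the other 3 under it. The log2 fold change was -0.21 with all libraries (SE 0.0865, limma adjusted p = 0.0858), -0.26 without replicate 1 (limma adjusted p = 0.0258) and -0.32 without replicates 1 and 4 (limma adjusted p = 0.00349). It was -0.13 after quantile normalization (limma adjusted p = 0.301) and -0.08 with the shift of neighbouring genes removed (limma adjusted p = 0.518). The values without A4KO replicates leave out libraries that were set apart partly by *MGLL* itself, so their adjusted p decides nothing. In 786O *MGLL* ranged from 101 to 109 TPM in WT and from 95.7 to 104 TPM in A4KO. The groups overlapped, with a log2 fold change of -0.07 (SE 0.0484, limma adjusted p = 0.241), which was -0.22 with the shift of neighbouring genes removed (limma adjusted p = 0.00339).

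**Figure D2:**
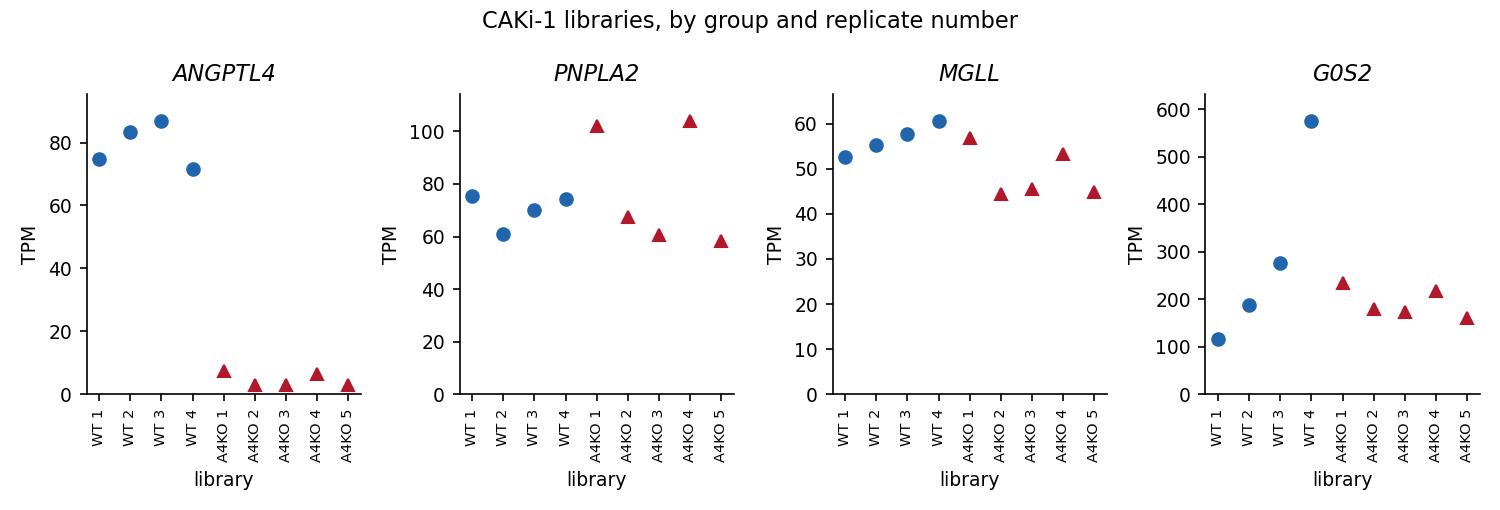
TPM in each CAKi-1 library, with WT and A4KO replicates numbered along the horizontal axis. A4KO replicates 1 and 4 sit above the other A4KO libraries for *ANGPTL4* (7.26 and 6.47 against 2.87 to 2.90 TPM), *PNPLA2*, *MGLL* and *G0S2*, and WT replicate 4 is the highest for *G0S2*, at 576 TPM.

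By TPM, which is corrected for length, the order of the mean levels in WT CAKi-1 was *G0S2*, *ANGPTL4*, *PNPLA2*, *MGLL*, *LIPA*, *ABHD5*, *LIPE*, *PNPLA3*, *LIPG* and *LPL*, from 290.1 to 0.0940 TPM. The library ranges of *ANGPTL4* and *PNPLA2*, and those of *PNPLA3* and *LIPG*, overlapped, and the other neighbours in the order did not. In WT 786O the order was *MGLL*, *LIPA*, *PNPLA2*, *G0S2*, *LIPG*, *ABHD5*, *ANGPTL4*, *LIPE* and *PNPLA3*, from 105 to 3.70 TPM, and of the neighbours the ranges of *MGLL* and *LIPA* overlapped. In A4KO cells of CAKi-1 the order was *G0S2*, *PNPLA2*, *MGLL*, *LIPA*, *ABHD5*, *LIPG*, *ANGPTL4*, *LIPE*, *PNPLA3* and *LPL*, from 193 to 0.376 TPM, and the ranges of *LIPG*, *ANGPTL4* and *LIPE* overlapped. In A4KO cells of 786O *LIPG* was the lowest member at 0.796 TPM, under *ANGPTL4* at 2.07 TPM, and no ranges of neighbours in the order overlapped.

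The counts below include *ANGPTL4*, whose fall was fixed in advance because the clones were selected for it. In CAKi-1, 4 of the 10 members passed, with *LPL*, *LIPG* and *LIPA* higher and only *ANGPTL4* lower. Of all genes of this line, 17.9% passed as higher and 21.1% as lower. *LIPG* was called higher and *ANGPTL4* called lower, calls that 2.21% and 1.12% of all genes had. The groups did not overlap for 3 members that were higher and 1 that was lower, against 16.1% and 19.8% of all genes. Of the 9 members in 786O, 8 passed, 7 lower and 1 (*LIPE*) higher. In this line 33.5% of all genes passed as lower and 27.5% as higher. Called lower were *ANGPTL4*, *LIPG* and *G0S2*, and 0 members were called higher (limma), where 5.19% and 2.43% of all genes were called. After quantile normalization 5274 genes of 786O passed as higher and 4469 as lower, against 4450 and 5424 without it, and 519 were called higher and 697 lower, against 393 and 840. The groups did not overlap for 7 members that were lower and 1 that was higher, against 36.8% and 30.1% of all genes.

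The median log2 fold change of the members, *ANGPTL4* included, was 0.10 in CAKi-1 and -0.49 in 786O, and that of all genes was -0.0078 and -0.030. The interaction term, which compares the effects in the lines, passed for 6 of 9 members, 5 of them lower in 786O and *ANGPTL4* higher, and 55.1% of the genes measured in both lines passed this test. The members that passed were *ANGPTL4*, *LIPG*, *LIPA*, *PNPLA3*, *ABHD5* and *G0S2*. *ANGPTL4*, *LIPG* and *LIPA* passed in both lines, and *LIPG* and *LIPA* with opposite signs. For *LIPE*, *PNPLA2* and *MGLL* the differences of 0.06, -0.27 and 0.13 did not pass (limma interaction adjusted p = 0.775, 0.373 and 0.352). With the shift of neighbouring genes removed they were 0.48, -0.48 and -0.14 in the same order (limma interaction adjusted p = 0.0408, 0.117 and 0.345), and after quantile normalization 0.34, -0.37 and 0.06 (limma interaction adjusted p = 0.0775, 0.259 and 0.736). Without A4KO replicates 1 and 4 of CAKi-1 those of *LIPE* and *PNPLA2* were 0.11 and 0.02 (limma interaction adjusted p = 0.544 and 0.913). That of *MGLL* was then 0.25 (limma interaction adjusted p = 0.0122). Those replicates were set apart partly by *MGLL* itself, so this adjusted p decides nothing.

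**Figure D3:**
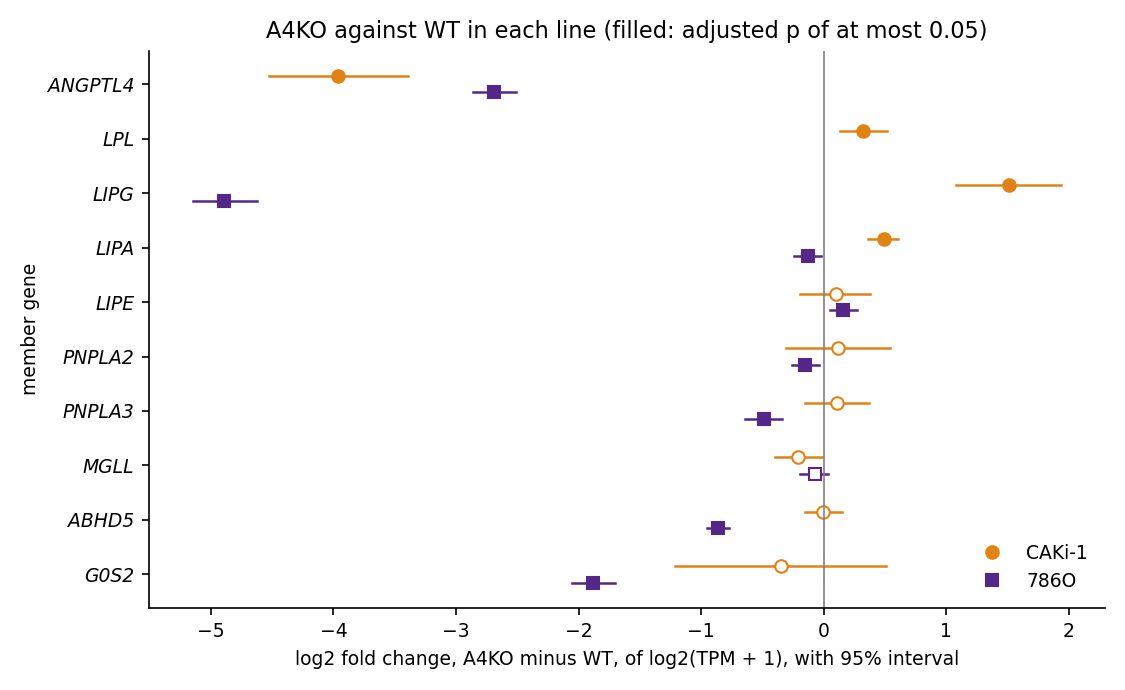
Log2 fold change of each member, A4KO minus WT, with 95% intervals for CAKi-1 and 786O, a positive value being higher in A4KO. *LIPG* is at 1.51 in CAKi-1 and at -4.89 in 786O, and *ABHD5* at -0.0012 and -0.86.

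The genes whose pattern was most like that of *ANGPTL4* were sought by Pearson correlation over the 15 libraries, after the mean of each line was taken off, among 11912 genes. They were *HOXC8* (r = 0.987), *LIMK1* (r = 0.986), *HOXB2* (r = 0.985), *TSPAN9* (r = 0.984) and *UBE2L6* (r = 0.983). Each had a lower mean in A4KO than in WT in both lines, as from 19.3 to 9.54 TPM in CAKi-1 and from 2.55 to 1.30 TPM in 786O for *HOXC8*. Most like *LIPA* were *CCN2* (r = 0.978), *SERINC2* (r = 0.973), *SEMA3F* (r = 0.97), *QTRT1* (r = 0.965) and *STAC* (r = 0.965). *CCN2*, which encodes a secreted matrix protein, had means of 48.2 and 120.4 TPM in WT and A4KO cells of CAKi-1 and of 50.4 and 36.4 TPM in those of 786O. These libraries share their genotype groups, so that a gene which differs between WT and A4KO in the same direction in both lines tends to correlate with *ANGPTL4* for that reason alone. For *LIPA*, with opposite directions in the lines, the value was r = -0.706.

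Partners of lipoprotein lipase were examined as a list of 20 genes that bind, fold, process or move it or its inhibitors. For this and each later list, the shares of all genes to compare are 17.9% passed as higher and 21.1% as lower in CAKi-1. In 786O they are 27.5% and 33.5%, and the medians of all genes are -0.0078 and -0.030. Of the 20 partners, 16 were measured in CAKi-1, 4 passed as higher and 6 as lower, and the median log2 fold change was -0.01. *APOE*, an apolipoprotein through which lipoproteins are taken up, fell from 93.7 to 31.7 TPM (log2 fold change -1.54, limma adjusted p = 2.08e-06). In 786O, 18 were measured, 7 passed as higher and 6 as lower, with a median of -0.04. *FURIN* and *PCSK5*, proprotein convertases, a class of enzymes that cleave ANGPTL4 and the lipases, rose from 20 to 45.8 TPM and from 20.8 to 53.5 TPM (log2 fold changes 1.15 and 1.32). In CAKi-1 *FURIN* rose as well, from 33.2 to 48.9 TPM, and less than in 786O by 0.61 on the log2 scale (limma interaction adjusted p = 2.67e-06). *PCSK5* was low there and went the other way, from 1.40 to 0.876 TPM with groups that overlapped (log2 fold change -0.36, limma adjusted p = 0.0142), and did not pass with the shift of neighbouring genes removed (limma adjusted p = 0.0573). Its effects in the lines differed by 1.69 (limma interaction adjusted p = 8.74e-08). *SORL1*, a sorting receptor, fell in both lines, from 4.39 to 1.72 TPM in CAKi-1 and from 3.38 to 0.340 TPM in 786O. *LIPC*, the gene of hepatic lipase, a relative of *LPL* and *LIPG*, rose in both, from 2.26 to 4.99 TPM and from 3.83 to 12.7 TPM, with log2 fold changes of 0.88 and 1.52 that did not differ past the threshold (limma interaction adjusted p = 0.0535). Of the other angiopoietin and ANGPTL family genes measured, 7 had a mean under 1 TPM in each line, and *ANGPTL2* was at 10.3 TPM in CAKi-1. Of the 10 listed, 8 were measured in CAKi-1, where 0 passed (limma; 1 had an unadjusted p under 0.05), and 7 in 786O, where *ANGPT1* passed as higher (log2 fold change 0.35) and *ANGPTL6* as lower (-0.47), with medians of 0.03 and -0.05.

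The route by which lysosomal acid lipase reaches and serves the lysosome was examined as 17 genes. In CAKi-1 all 17 were measured, 4 passed as higher and 5 as lower, with a median of -0.01, and in 786O 16 were measured, 8 passed as higher and 4 as lower, with a median of 0.18. *SORT1*, which encodes sortilin, a receptor that carries proteins from the Golgi to lysosomes, moved in opposite directions as *LIPG* did. It was at 7.02 to 9.06 TPM in WT and 13.2 to 14.6 TPM in A4KO cells of CAKi-1, and at 25.2 to 28.0 TPM and 5.76 to 6.0 TPM in those of 786O. The difference of its log2 fold changes, 0.78 in CAKi-1 and -2.0 in 786O, was -2.78 (SE 0.0966, limma interaction adjusted p = 4.87e-11). *SOAT1*, whose enzyme esterifies cholesterol, went the other way. It fell from 90.8 to 57.5 TPM in CAKi-1 and rose from 52.8 to 90.9 TPM in 786O, a difference of 1.42 between the log2 fold changes (limma interaction adjusted p = 1.40e-08). *GNPTAB*, needed for the mannose 6-phosphate tag of lysosomal enzymes, fell from 30.6 to 22.5 TPM in CAKi-1 (limma adjusted p = 0.000176) and rose from 21.7 to 25.5 TPM in 786O (limma adjusted p = 0.00283), a difference of 0.65 (limma interaction adjusted p = 1.35e-06).

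Lipid droplet proteins and the signalling that controls lipolysis were listed as 22 genes. In CAKi-1, 20 were measured, 4 passed as higher and 5 as lower, with a median of 0.04. In 786O, 19 were measured, 7 passed as higher and 8 as lower, with a median of -0.09. *HSD17B11*, which encodes a lipid droplet enzyme, rose in both lines, from 20 to 30 TPM and from 14.7 to 34.7 TPM, and more in 786O by 0.62 on the log2 scale (limma interaction adjusted p = 0.000105). *PRKAR2B*, a regulatory subunit of protein kinase A, the kinase that activates lipolysis, fell in both, from 1.80 to 1.22 TPM and from 8.99 to 1.39 TPM. *FABP5*, a fatty acid binding protein, fell in 786O from 441 to 234 TPM (log2 fold change -0.91, limma adjusted p = 4.44e-06). Of 23 other lipid hydrolases, 19 were measured in CAKi-1, where 4 passed as higher and 3 as lower, and 20 in 786O, where 5 passed as higher and 7 as lower, with medians of 0.10 and -0.01. *DAGLB*, a diacylglycerol lipase, fell in both lines, by 0.63 and by 0.68 on the log2 scale. *PLA2G15*, a lysosomal phospholipase, rose in 786O from 19.1 to 32.8 TPM (limma adjusted p = 2.51e-05).

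PPARs, the nuclear receptors that fatty acids activate, and the hypoxia-inducible factors are known regulators of *ANGPTL4* transcription. Of 15 such regulators and their partners, 14 were measured in each line. In CAKi-1, 6 passed as higher and 2 as lower, with a median of 0.16, and in 786O, 4 passed as higher and 8 as lower, with a median of -0.35. *HIF1A* fell in 786O, from 186, 181 and 174 TPM in WT to 13.3, 17.5 and 18.2 TPM in A4KO (log2 fold change -3.40, limma adjusted p = 3.16e-06). *EPAS1*, which encodes HIF-2 alpha, rose in CAKi-1, from 24.2 to 32.0 TPM in WT to between 98.3 and 129.6 TPM in A4KO (log2 fold change 1.99, limma adjusted p = 2.66e-06). In 786O it fell from a mean of 86.2 to 64.6 TPM (log2 fold change -0.41, limma adjusted p = 0.000346), and the effects differed by -2.40 (limma interaction adjusted p = 4.55e-09). *PPARD* moved in opposite directions, from 12.2 to 16.0 TPM in CAKi-1 and from 22.2 to 7.91 TPM in 786O, and the difference of its log2 fold changes was -1.74 (limma interaction adjusted p = 2.87e-10). *PPARGC1A*, a coactivator of PPARs, rose in both lines, from 0.485 to 1.74 TPM in CAKi-1 (log2 fold change 0.88, limma adjusted p = 0.00146) and from 1.71 to 9.75 TPM in 786O (log2 fold change 2.0, limma adjusted p = 3.44e-05). The difference of 1.12 (limma interaction adjusted p = 0.000609) was 0.75 with a pseudocount of 0.1 and did not pass there (limma interaction adjusted p = 0.152). *RXRA*, the partner of PPARs on DNA, rose in 786O from 29.2 to 52.4 TPM (log2 fold change 0.82, limma adjusted p = 1.11e-05), or by 0.27 on the log2 scale with the shift of neighbouring genes removed (limma adjusted p = 0.00125). Of 12 PPAR target genes other than *ANGPTL4*, 10 were measured in CAKi-1, where 4 passed as higher and 1 as lower, and 11 in 786O, where 7 passed as higher and 3 as lower, with a median of 0.22 in each line. *CPT1A*, which encodes the enzyme that commits fatty acids to mitochondria, rose in 786O from 0.938 to 6.02 TPM (log2 fold change 1.86, limma adjusted p = 4.97e-06). *ECH1*, an enzyme of fatty acid oxidation, rose in CAKi-1 and fell in 786O, with log2 fold changes of 0.58 and -0.68.

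**Figure D4:**
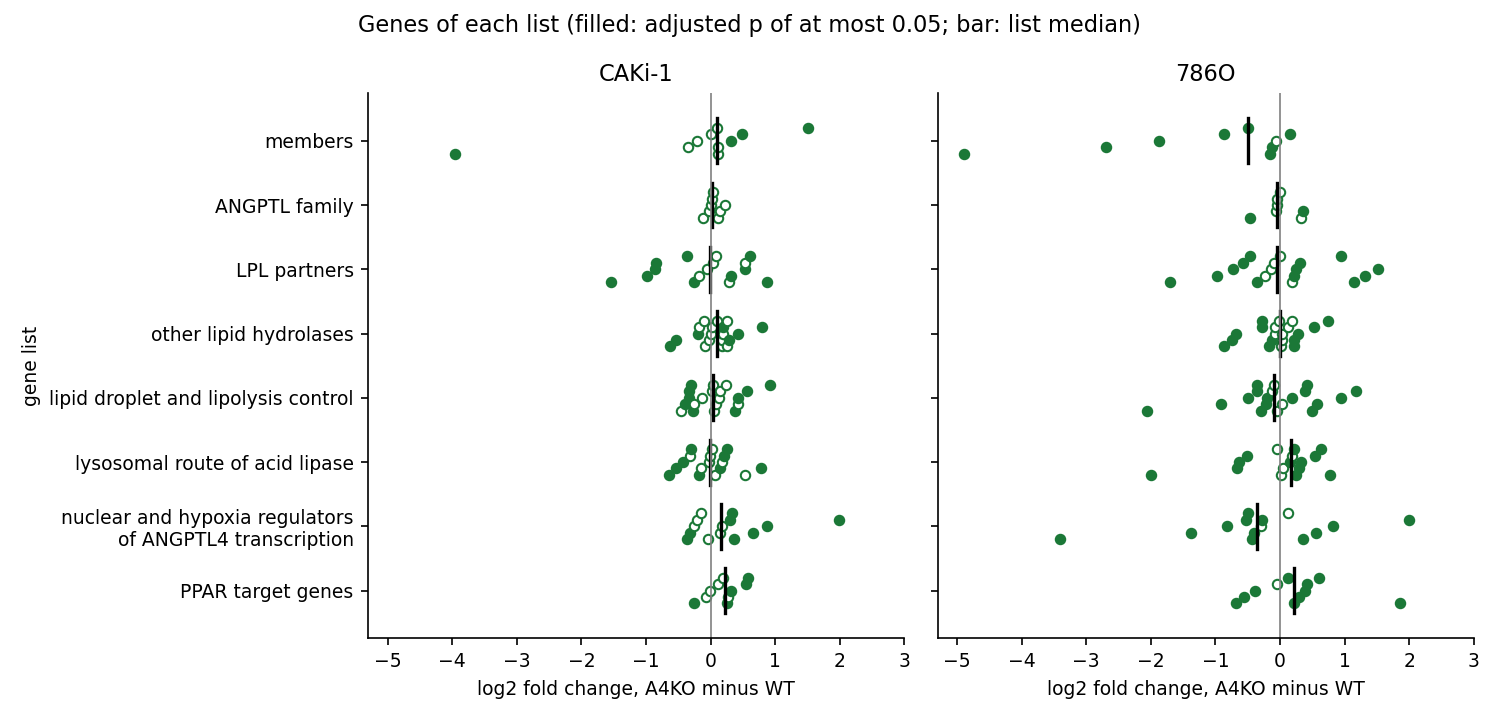
Log2 fold change of every measured gene of the members and of the 7 lists of lipid and regulator genes, without the cell type markers, A4KO minus WT, in CAKi-1 and 786O, with 1 point per gene (filled where the gene passed) and a bar at the median. The medians of these lists lie between -0.49, for the members in 786O, and 0.22, and single genes such as *HIF1A* at -3.40 in 786O lie far outside.

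The labels name renal carcinoma cells, and markers of these and of other cell types were read in the same libraries. Of 11 renal epithelial and ccRCC markers, 9 were measured in CAKi-1, without *PAX2* and *CA9*, and all 11 in 786O. Their summed TPM was 6446, 6288, 5982 and 5378 in WT and 2811, 3658, 3741, 2968 and 3486 in A4KO cells of CAKi-1. In 786O it was 5958, 5752 and 5774 in WT and 4434, 4413 and 4466 in A4KO. *VIM* was the most abundant in both, and the sum was lower in A4KO than in WT in each line. In CAKi-1, 2 of these markers passed as higher and 4 as lower, *KRT8* and *KRT18* with log2 fold changes of -1.88 and -1.57. A4KO replicates 1 and 4 stood apart here too, at 265 and 305 TPM of *KRT8* against 493 to 566 TPM in the other A4KO libraries. For *KRT18* they were at 223 and 259 TPM against 383 to 451 TPM. In 786O, 3 passed as higher and 8 as lower, *CA9* with -2.73 and *PAX2* with 1.78. *PAX8*, a transcription factor of the renal lineage, was at means of 172 and 186 TPM in WT and A4KO of CAKi-1 and of 231 and 152 TPM in those of 786O. Median log2 fold changes of this list were 0.11 and -0.46, and its part in the results for the members was not tested.

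Of 6 adipocyte markers, 3 were measured in CAKi-1 and 2 in 786O, and 0 passed (limma) in either line, with an unadjusted p under 0.05 for 1 in CAKi-1 and 0 in 786O. Their summed TPM was 0.928, 1.78, 1.90 and 2.78 in WT and 2.75, 2.72, 2.69, 3.73 and 2.63 in A4KO cells of CAKi-1, with *RBP4* the most abundant, and 0.0594, 0.169 and 0.231 in WT and 0.195, 0.157 and 0.213 in A4KO cells of 786O, with *PLIN1* the most abundant. *ADIPOQ* was not among the genes measured in CAKi-1. The markers measured in 786O were thus near 0. In CAKi-1 *PLIN1* (means of 0.0481 TPM in WT and 0.115 TPM in A4KO) and *LEP* (0.0237 and 0.0269 TPM) were near 0 too. *RBP4*, at 1.77 and 2.76 TPM, made up most of the sum there. Of 6 leukocyte markers, 4 were measured in CAKi-1, summing to between 56.3 and 59.9 TPM in WT and between 50.1 and 60.7 TPM in A4KO, and 3 in 786O, summing to between 42.8 and 44.1 TPM in WT and between 20.2 and 21.5 TPM in A4KO. *CD3E*, a T cell marker, was measured in neither line. *CD68*, a lysosomal protein, made up most of these sums, and was the only one of the list to pass, with -1.06 in 786O. Of 6 endothelial markers, 1 was measured in CAKi-1, *PECAM1*, at 0.209, 0.315, 0.555 and 0.361 TPM in WT and 6.17, 1.97, 1.54, 4.46 and 2.32 TPM in A4KO. In 786O, 3 were measured, summing to 1.26, 1.27 and 1.88 TPM in WT and 0.964, 0.863 and 1.04 TPM in A4KO. *PECAM1* passed in both lines, with log2 fold changes of 1.55 and -0.46, the direction of *LIPG* in each, and its part in that result was not tested. *VWF*, *CDH5* and *KDR*, defining markers of endothelium, were not among the genes measured in either line.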

How the data were processed

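The authors pseudoaligned paired reads of 150 bases with kallisto to hg38, per the labels, and deposited 1 table of gene values per line. The unit of the deposited values was taken to be TPM as kallisto gives it, because they are not whole and no library sums to less than 961437 or more than 973887. How transcripts were summed and whether strand was used is not given in the sources used here. The tests were made on log2(TPM + 1) with limma 3.58.1 (lmFit, eBayes; R 4.3.3), A4KO against WT and each line apart. They were two-sided, no gene of the deposited values was filtered out, and p-values were adjusted by the Benjamini-Hochberg method across every gene of a line. An interaction term, fitted to the 15247 genes measured in both lines, compared the effects. Exact permutation tests were run for single genes. On simulated data with 200 changed genes, 100% were recovered in CAKi-1 and 99.5% in 786O, with 0 false calls. The changes were set larger than the size for a call, in well expressed genes only and with independent noise. The simulation therefore does not bear on small changes or on genes with low TPM. The members and lists were chosen with earlier results of these data known, and lists are described by counts and medians with no set test. Named are all members and, from each list and line, up to 4 genes with the largest change among those that passed and whose groups do not overlap, and the 5 genes most like *ANGPTL4* and *LIPA*. *PAX8*, the most abundant markers, and genes that overlap or neighbour a member stand outside this rule and were named after their values were seen. Alternatives were a pseudocount of 0.1, a mean TPM of at least 1, quantile normalization, trend and robust options of eBayes, TPM without mitochondrial genes, a replicate block, each library left out, CAKi-1 without A4KO replicates 1 and 4, and the median shift of 25 expressed genes (mean log2 of at least 1) on each side taken off (neighbour-centred). Positions are from GENCODE release 44.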

Additional observations from a re-analysis of the deposited data

Results flagged for a closer look

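For 6 of 9 members the A4KO effect differed between CAKi-1 and 786O by a limma interaction term, which 55.1% of the genes measured in both lines also passed. The difference of the log2 fold changes, 786O minus CAKi-1, was 1.27 for *ANGPTL4*, -6.40 for *LIPG*, -0.62 for *LIPA*, -0.60 for *PNPLA3*, -0.86 for *ABHD5* and -1.52 for *G0S2*. *LIPG* and *LIPA* passed with opposite signs, *ANGPTL4* fell in both lines, and *PNPLA3*, *ABHD5* and *G0S2* passed in 786O but not in CAKi-1. Of 20 groups of 4 or 5 CAKi-1 libraries examined for a single library far from the others, 0 had one, where chance gives about 1 in 20. Groups of 3 libraries, as in 786O, were not examined for this.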

How the results depend on the processing

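Of 214 estimates for members under other settings, 194 kept their direction and their side of the threshold, and 11 no longer passed, 4 newly passed and 5 changed sign. Of 279 with 1 library left out, the counts were 257, 14, 1 and 7. For estimates of the other named genes that passed, in each line and between the lines, they were 872, 30, 0 and 7 of 909 under other settings, and 1155, 42, 0 and 0 of 1197 with 1 library left out. A pseudocount of 0.1 gave 1077 called genes in CAKi-1, against 543, and 2095 in 786O, against 1233. The sign turned without A4KO replicates 1 and 4 of CAKi-1 for *PNPLA2* (-0.17) and *ABHD5* (0.0020) in CAKi-1 and for the difference between the lines of *PNPLA2* (0.02). Neighbour-centred, it turned for *LIPE* in CAKi-1 (-0.05), for the difference of *MGLL* (-0.14), for those of *ABHD4* (0.07), *LAMP1* (-0.01) and *NPC2* (0.49), and in 786O for *ACADVL* (0.13), *DDHD1* (0.13), *LAMP1* (-0.08) and *NPC2* (0.19). With each library left out, log2 fold changes ranged from -0.05 to 0.03 for *ABHD5*, from -0.70 to 0.06 for *G0S2*, from 0.02 to 0.19 for *LIPE* and *PNPLA3* and from 0.01 to 0.21 for *PNPLA2* in CAKi-1, and from -0.10 to -0.04 for *MGLL* in 786O. The difference between the lines ranged from -0.03 to 0.14 for *LIPE* and from -0.37 to -0.16 for *PNPLA2*. The causes were not tested. Members that passed in 786O numbered 5 to 8 with each library left out, as against 8. All genes that passed there then numbered 9049 to 9198 of 16188, as against 9874. With the replicate number as a block (replicate block), 5 members passed in 786O, without *LIPA*, *LIPE* and *PNPLA2*, and 4 in CAKi-1. Of all genes, 9312 of 16188 passed in 786O and 5609 of 16296 in CAKi-1. Called were 603 genes of CAKi-1 and 1233 of 786O. The block takes the numbers that both groups share and so leaves out A4KO replicate 5 of CAKi-1, without which 603 genes were called with no block too. Deviations of libraries with the same number had Pearson r of -0.061, 0.121, -0.035 and 0.134 in CAKi-1 and -0.046, 0.018 and 0.006 in 786O. Not every library was most like the one of its own number. So few values cannot decide whether the numbers pair the libraries, and the main test used no block. TPM holds no depth, so counting error is unknown, which matters most for *LPL* and other genes under 1 TPM. With 3 libraries a group, the small differences of *LIPA*, *LIPE* and *PNPLA2* in 786O rest on which libraries enter.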

Other observations

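Some of the named list genes of 786O moved with their stretch of the genome. *NPC2*, which encodes a cholesterol carrier of the lysosome, fell from 236 to 148 TPM (log2 fold change -0.66) and had 0.19 with the median shift of its neighbours removed (limma adjusted p = 0.00706). *LAMP1*, a lysosomal membrane protein, rose from 169.8 to 263 TPM (log2 fold change 0.63) and had -0.08 with that shift removed (limma adjusted p = 0.116). *DDHD1*, a phospholipase, had -0.75 and then 0.13, *ABHD4*, a hydrolase of phospholipids, -0.87 and then -0.12, and *ETFDH*, an enzyme of electron transfer from fatty acid oxidation, 0.60 and then 0.22, and these no longer passed (limma adjusted p = 0.136, 0.310 and 0.0762). In CAKi-1 *NCEH1*, a cholesteryl ester hydrolase, fell from 86.4 to 60.5 TPM (log2 fold change -0.53), and had -0.41 with the shift removed (limma adjusted p = 0.0509).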
